A study of Homo sapiens with 6 samples.

Results

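The 36 genes described here encode the structural parts of the human centromere and kinetochore, the protein layers that sit on centromeric DNA and tie each chromosome to spindle microtubules. They were taken by gene symbol, by a rule that used no measured value although earlier results of these data were known when the list was drawn up, and all 36 were found among the 63129 genes listed in the expression table. SPC25 and SKA1 each appeared on more than 1 row, of which the row with the higher mean was used and the other was at 0 in every library. RNA was sequenced in 6 libraries of ERRAS cells, which are primary human IMR90 lung fibroblasts stably carrying a retroviral fusion of H-RasV12 with the estrogen receptor that tamoxifen switches on. The 3 control libraries came from uninduced cells and the 3 Ras-induced libraries from cells induced for 4 days with tamoxifen, which the labels give as 100 nM and the methods as 100 ng/ml of 4-hydroxytamoxifen. Both groups carried the construct, and both were arrested in mitosis with 1 μM dimethylenastron (DME), a drug that blocks the kinesin Eg5 and leaves cells with a monopolar spindle, so no library here shows an undisturbed mitosis. Detached cells were collected, with a mitotic index over 90% in both groups, and the experiment was stated to have been repeated independently. The p-values measure the spread between these libraries. Each library is a bulk measurement, in which fewer cells of a kind and less RNA per cell cannot be told apart.

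Centromeres are marked by nucleosomes that hold the histone H3 variant CENP-A in place of H3. CENP-A nucleosomes are bound through the cell cycle by the constitutive centromere-associated network (CCAN), and in mitosis the CCAN carries the outer kinetochore, made of the KNL1, MIS12 and NDC80 complexes (together the KMN network), which binds microtubules. Many of these genes are transcribed periodically, with transcripts that accumulate toward mitosis in dividing fibroblasts. The comparison of induced with uninduced cells asked how Ras activation changes the transcripts of cells that are already in mitosis, and for these genes whether the parts of the kinetochore moved together.

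Expression is given in FPKM, a density of sequenced fragments that accounts for the length of a gene and the size of a library. It puts levels of different genes on 1 scale per length, within the limits given below. Changes are log2 fold changes of FPKM + 1, Ras-induced over control, with their standard error (SE), and this scale understates the change of genes at low FPKM. They were tested with limma over the 13993 genes that averaged 1 FPKM or more, and a gene is called altered where its p after Benjamini-Hochberg adjustment was no higher than 0.05. Most markers of mitosis and all of those of fibroblasts were high in all libraries. The 10 mitotic markers, such as the cyclin gene CCNB1 and the anaphase activator CDC20, summed to between 1509 and 1919 FPKM per library. The 7 fibroblast markers summed to between 5353 and 6263 FPKM in the controls and between 3934 and 5285 FPKM after induction. COL1A2 and THY1 fell, though COL1A2 lost its call without control library 2 or Ras-induced library 1. COL1A1 went from 1345 to 550 FPKM and COL3A1 from 253 to 114 FPKM. Their groups did not overlap, but neither was called (adjusted p = 0.0501 and 0.0553 from limma). VIM, FN1 and PDGFRB, whose groups overlapped, were not altered. The 3 endothelial markers summed to no more than 0.0988 FPKM with PECAM1 at 0 in every library, the 4 epithelial markers to between 20.4 and 32.8 FPKM, nearly all of it the keratins KRT5 and KRT8, and the 3 leukocyte markers to between 25.2 and 35.6 FPKM, nearly all of it the lysosomal gene CD68, with PTPRC and CD3E near or at 0. The PECAM1 entry has no position in the annotation used, so its 0 is not read as absence of the transcript. CDK1, the kinase that drives mitosis, was listed at only 3.68 and 2.73 FPKM in the control and Ras-induced groups, so a low level in this table was not read as absence. The mitotic markers TOP2A, at 9.60 and 5.90 FPKM, and UBE2C, at 13.5 and 13.8 FPKM, were also far below the others. Relative to control library 1, the depth of the others, estimated from the steps between low values, was between 0.848 and 1.17.

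The libraries of a group differed among themselves along transcript length, and this touched the kinetochore genes. Of the 36 genes, 23 had their lowest control value in control library 3 and 10 had their highest there. There the 7 tested members with transcripts over 5000 nt, differed from the other controls by a median of 0.28 on the log2 scale, with CENPE, CENPF, CASC5 and CENPJ above them and CENPC, CENPI and NSL1 below, and the 18 with transcripts under 2500 nt by a median of -0.17. Among the Ras-induced libraries, 25 of the 36 genes were highest in library 2. The same counts were not made over all genes, so they are not read as a trait of the members. Across 13605 genes with a known length, the deviation of a library from the rest of its group correlated with length at a Spearman's rho between -0.27 and 0.27, a description over genes that share libraries and are not independent. The change after Ras induction itself had a rho of -0.11 with length over all genes and of -0.15 over the 35 tested members. The part of transcript length in the results below was not tested, and calls of the 36 genes that change when a library is left out are given with and without it.

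In control mitotic cells most of these genes were expressed strongly, and 34 of the 36 had a mean of at least 5 FPKM over all libraries. The highest were CENPW (114 ± 13.8 FPKM, SD, n = 3), a histone-fold subunit of the CCAN, and the rod subunits of the NDC80 complex, NDC80 (106 ± 4.60 FPKM, SD, n = 3) and NUF2 (104.7 ± 7.50 FPKM, SD, n = 3). CENPA (99.6 ± 7.96 FPKM, SD, n = 3) and its dedicated chaperone HJURP (98.9 ± 5.25 FPKM, SD, n = 3) followed. The control libraries of each of these genes overlapped with those of its neighbour in that order. At the other end, CENPC, the scaffold that links CENP-A nucleosomes to the outer kinetochore, measured only 1.21 ± 0.211 FPKM (SD, n = 3). CENPP, a subunit of the CCAN, measured 0.852 ± 0.113 FPKM (SD, n = 3) and was the 1 member that did not reach the mean of 1 FPKM needed for testing. Its 3 Ras-induced libraries, at 1.01, 1.24 and 1.19 FPKM, lay above its 3 controls, at 0.721, 0.917 and 0.918 FPKM. CENPP shares 39.9% of its exon bases with the opposite-strand gene IPPK, listed at 5.08 and 8.45 FPKM in the control and Ras-induced groups, and since the library kit marks no strand, reads of the pair cannot be told apart there.

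Ras induction altered 8 of the 35 tested genes, with 7 lower and 1 higher. The 7 that fell were CENPM, SPC25, MLF1IP, CENPE, CENPF, NUF2 and CASC5, and the 1 that rose was APITD1. Altered genes made up 22.9% of the members and 16.7% of all tested genes, so that the share altered in either direction was near the background. By direction, 20.0% of the members were altered and lower, against 5.67% of all tested genes, while 2.86% were altered and higher, against 11.0%. The estimate was below 0 for 25 of the 35 members, or 71.4%, against 37.3% of all tested genes. The Ras-induced libraries all lay below the controls for 13 members, or 37.1%, where the background is 12.8%, and all above them for 1 tested member, where it is 27.1%. The median log2 fold change of the members was -0.23 and that of all tested genes 0.10. These counts describe the list and are not a test of it.

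**Figure D1:**
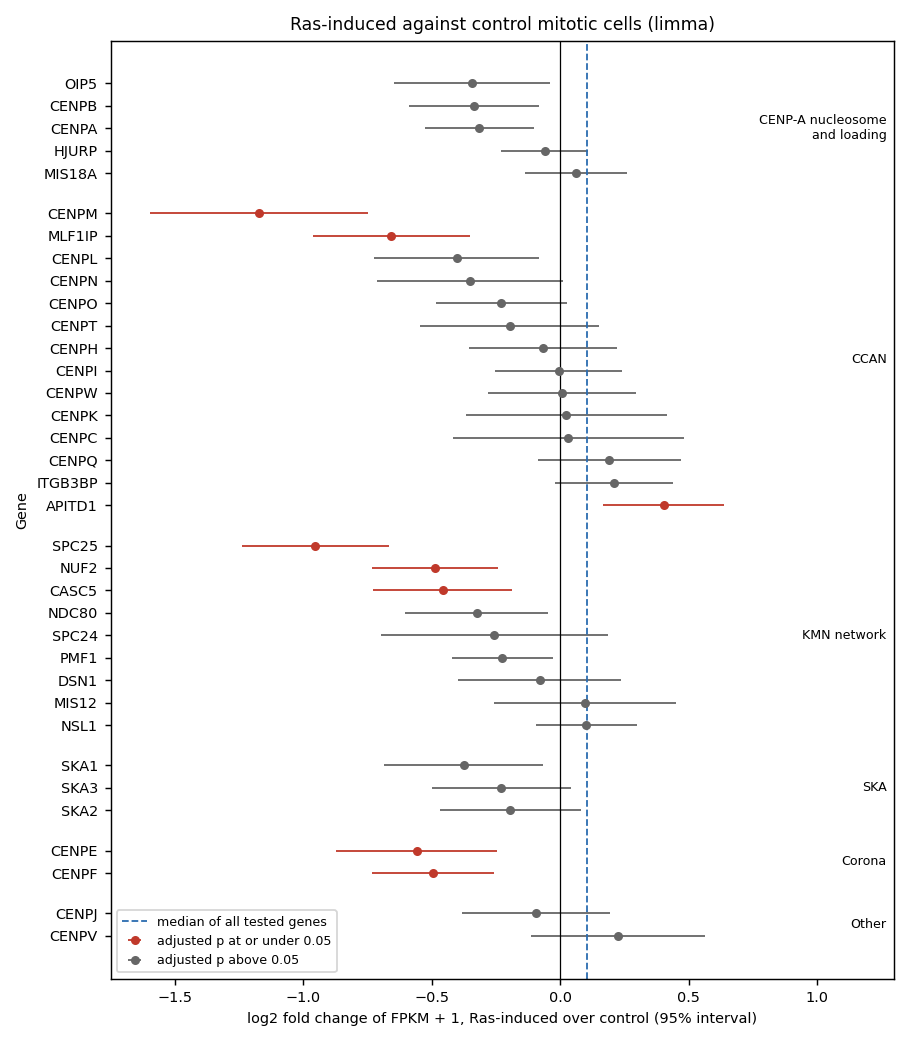
Log2 fold change of FPKM + 1 (x axis, Ras-induced over control) with its 95% interval for the 35 tested genes, grouped by role; red marks adjusted p at or under 0.05 and the dashed line is the median of all tested genes. All red points except APITD1 lie to the left of 0, and 31 of the 35 points lie to the left of the dashed line.

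The background moved with the scaling of the libraries, and the members moved with it. Quantile normalization took the median of all genes to 0.01 and that of the members to -0.34, and 12 members were then altered, all lower, against 7.93% lower calls among all genes. After scaling to a common upper quartile 13 were altered, all lower, against 7.87%. The difference of the members' median from that of all genes was -0.33 in the deposited values, -0.35 after quantile normalization and -0.34 after upper-quartile scaling. Other cell cycle genes moved in the same direction in the same libraries. Of the 10 mitotic markers 5 fell (CCNB2, PLK1, TOP2A, CCNA2 and HMMR) and none rose, and their sum went from between 1888 and 1919 FPKM in the controls to between 1509 and 1658 FPKM. Of the 10 targets of the S phase transcription factor E2F, 6 of the 9 tested fell (CDT1, MCM2, MCM3, MCM5, MCM6 and PCNA) and none rose, and their sum went from between 454.9 and 490.9 FPKM to between 307.1 and 366.7 FPKM. With single libraries left out, MCM3, MCM5 and MCM6 kept their calls in every fit, the other E2F targets lost theirs in at least 1 (adjusted p up to 0.0612 from limma), and each of the 5 mitotic markers lost its call in at least 2 (up to 0.129). The part of cell cycle position in the changes of the kinetochore genes was not tested.

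Promoter sequence was at hand for 30 of the 36 members, as RefSeq windows of the GRCh38.p14 build that run from 250 bases before to 50 bases after the start site. CASC5, CENPH, CENPJ, CENPL, CENPM and MIS18A had none. The windows were searched on both strands for the letters TTTGAA (the CHR, a cell cycle element of genes expressed in mitosis), CCAAT (the box bound by NF-Y) and GCGGGAA (an E2F-like element) on their own, so that overlapping matches of different motifs count for each. Of the 33 windows of these members, some of which have more than 1, the CHR letters were in 33.3%, against 15.2% of all 35116 windows. CCAAT was in 51.5% of the members' windows and in 34.6% of all, and GCGGGAA in 27.3% and in 6.55%. Counted by gene, 11 members held the CHR letters, 16 CCAAT and 8 GCGGGAA. Of the 5 lower members with a window, 3 held the CHR letters (CENPF, NUF2 and SPC25), as did 8 of the 24 members that were not altered or, in the case of CENPP, not tested. CCAAT was held by 3 of the 5 and 13 of the 24, and GCGGGAA by 1 of the 5 and 6 of the 24, and none of these splits was tested. The first 280 bases of 4 windows are shown, up to 30 bases after the start site, to show the motifs in place for SPC25, CENPF and MLF1IP, which fell, and for CENPA, the gene nearest the threshold among those not called. Capitals mark the 3 motifs on either strand, and CENPF holds its CHR letters past the stretch shown.
SPC25, chr2:168890401-168890680 (GRCh38.p14, minus strand): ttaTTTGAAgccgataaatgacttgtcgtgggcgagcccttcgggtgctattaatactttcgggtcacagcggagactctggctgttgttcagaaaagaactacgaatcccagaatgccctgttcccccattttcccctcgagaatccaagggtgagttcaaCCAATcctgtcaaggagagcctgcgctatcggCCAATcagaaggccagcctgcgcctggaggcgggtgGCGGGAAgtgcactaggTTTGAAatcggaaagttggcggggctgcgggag
CENPF, chr1:214602945-214603224 (GRCh38.p14, plus strand): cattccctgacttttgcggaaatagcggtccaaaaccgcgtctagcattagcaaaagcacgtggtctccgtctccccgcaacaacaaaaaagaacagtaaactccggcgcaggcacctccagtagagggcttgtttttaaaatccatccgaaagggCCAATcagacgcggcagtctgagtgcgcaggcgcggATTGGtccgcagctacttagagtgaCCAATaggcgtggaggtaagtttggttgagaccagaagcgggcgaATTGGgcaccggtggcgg
MLF1IP, listed by RefSeq as CENPU, chr4:184734067-184734346 (GRCh38.p14, minus strand): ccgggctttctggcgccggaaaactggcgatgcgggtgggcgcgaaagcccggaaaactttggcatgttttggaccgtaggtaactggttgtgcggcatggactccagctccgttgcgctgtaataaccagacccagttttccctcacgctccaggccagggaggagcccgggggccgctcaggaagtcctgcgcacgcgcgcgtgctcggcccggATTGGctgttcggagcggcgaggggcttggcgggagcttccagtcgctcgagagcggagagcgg
CENPA, chr2:26785806-26786085 (GRCh38.p14, plus strand): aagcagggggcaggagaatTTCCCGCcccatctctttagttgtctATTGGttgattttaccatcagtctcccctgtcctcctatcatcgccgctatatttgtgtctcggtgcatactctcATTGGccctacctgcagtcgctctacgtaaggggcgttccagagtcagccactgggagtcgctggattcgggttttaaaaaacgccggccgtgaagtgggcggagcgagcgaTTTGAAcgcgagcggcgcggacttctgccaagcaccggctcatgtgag
SPC25 and CENPA both held all 3 motifs, as did CENPN, which was not altered and is not shown. The window of CENPE, a gene that fell, held none of them, and neither did those of some members not altered, such as CENPT and DSN1.

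Of the 5 genes of the CENP-A nucleosome and its deposition, none was altered at the threshold, where 16.7% of all tested genes were. The estimate was below 0 for 4 of them, against 37.3% of all tested genes. CENPA (ENSG00000115163, chromosome 2 of GRCh37 from 26987157 to 27023935), the centromeric histone itself, measured 108, 99.6 and 91.6 FPKM in the controls and 77.9, 85.3 and 76.1 FPKM in the Ras-induced libraries. The groups did not overlap, and its log2 fold change was -0.32 (SE 0.09, limma adjusted p = 0.0564). CENPA was the member nearest the threshold on the side not called. After quantile normalization its adjusted p was 0.0183, and without control library 3 it was 0.0421, whereas it was between 0.0658 and 0.161 without any other library. CENPB, which binds a sequence motif in centromeric alpha satellite DNA, was next nearest. It measured 58.9, 57.3 and 48.1 FPKM in the controls and 40.0, 46.6 and 42.7 FPKM after induction, without overlap, with a log2 fold change of -0.34 (SE 0.11, limma adjusted p = 0.0761, 0.0257 after quantile normalization and 0.0370 without control library 3, but between 0.0895 and 0.194 without any other library). OIP5, also known as MIS18B, and MIS18A form the complex that primes centromeres for new CENP-A. OIP5 had a log2 fold change of -0.34 (adjusted p = 0.113 from limma) with no overlap between groups. It was called in 1 of 18 settings, upper-quartile scaling (adjusted p = 0.0490 from limma). MIS18A had 0.06 with a 95% interval from -0.14 to 0.26, and an estimate below 0 after quantile or upper-quartile scaling. HJURP, which delivers CENP-A, had group means of 98.9 ± 5.25 and 94.7 ± 1.48 FPKM (SD, n = 3 each), and the interval of its log2 fold change ran from -0.23 to 0.11. The annotated exons of OIP5 share 63.2% of their bases with the opposite-strand RNA OIP5-AS1, at 13.6 and 14.4 FPKM in the control and Ras-induced groups, and 29.3% with the opposite-strand gene NUSAP1, at 37.6 and 25.2 FPKM, so reads of these genes cannot be told apart there either.

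The 15 CCAN genes did not move as one. Of the 14 tested, CENPM and MLF1IP fell, APITD1 rose and 11 were not altered, so that 21.4% were altered, near the 16.7% of all tested genes, and the median log2 fold change was -0.04. CENPM (ENSG00000100162, chromosome 22 of GRCh37 from 42334741 to 42343156) encodes a small subunit that holds CENP-H, CENP-I and CENP-K together. It measured 26.3, 27.9 and 19.3 FPKM in the control libraries and 9.61, 12.4 and 8.82 FPKM in the Ras-induced libraries. Every Ras-induced value lay well under the lowest control. The group means were 24.5 ± 4.60 and 10.3 ± 1.88 FPKM (SD, n = 3 each), a log2 fold change of -1.17 (SE 0.18, limma adjusted p = 0.00931), the largest change of any member. Its partners showed no such change: the log2 fold changes of CENPH, CENPI and CENPK were -0.07, -0.01 and 0.02, with 95% intervals from -0.35 to 0.22, from -0.25 to 0.24 and from -0.37 to 0.41. These 3 signs flip with the library left out, and that of CENPK also flips after quantile or upper-quartile scaling.

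MLF1IP (ENSG00000151725, chromosome 4 of GRCh37 from 185615239 to 185655284), now named CENPU, belongs to the CENP-O, -P, -Q, -R and -U complex, and its protein recruits the kinase PLK1 to kinetochores. It measured 49.9, 45.7 and 39.5 FPKM in the controls and 27.0, 32.4 and 25.3 FPKM after Ras induction. The groups were separated, and the mean fell by 37.3%, from 45.0 ± 5.25 to 28.2 ± 3.75 FPKM (SD, n = 3 each), a log2 fold change of -0.66 (SE 0.13, limma adjusted p = 0.0192). CENPO had a log2 fold change of -0.23 (adjusted p = 0.187 from limma), and CENPQ and ITGB3BP, the gene of CENP-R, had 0.19 and 0.21 (adjusted p = 0.296 and 0.181 from limma), which became 0.090 and 0.10 after quantile normalization. Without Ras-induced library 2 CENPQ had 0.13. The exons of CENPO share 27.0% of their bases with the opposite-strand gene ADCY3, at 67.5 FPKM in the controls, and those of MLF1IP 14.9% with CCDC111, at 12.4 and 10.3 FPKM in the control and Ras-induced groups. CENPL and CENPN, which form a pair that reads the CENP-A nucleosome, had log2 fold changes of -0.40 and -0.35 (adjusted p = 0.0878 and 0.157 from limma). CENPL was called in the scaled values (adjusted p = 0.0412 after quantile normalization) and without control library 3 (0.0287), but not without any other library, where its adjusted p was between 0.165 and 0.218.

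APITD1 (ENSG00000175279, chromosome 1 of GRCh37 from 10490490 to 10502865), now named CENPS, encodes a histone-fold protein that works at centromeres with CENP-T, CENP-W and CENP-X and in DNA crosslink repair with FANCM. It measured 18.1, 21.0 and 17.8 FPKM in the controls and 23.7, 27.2 and 25.2 FPKM in the Ras-induced libraries, all 3 above the controls. Its log2 fold change was 0.40 (SE 0.10, limma adjusted p = 0.0390). This call did not hold when any 1 library was left out, with adjusted p between 0.0560 and 0.116 from limma, nor after quantile normalization, where it was 0.0959. APITD1 shares 65.0% of its exon bases with the readthrough gene APITD1-CORT, listed at 1.70 and 1.09 FPKM in the control and Ras-induced groups. With the values of that row added, the log2 fold change was 0.34 (adjusted p = 0.0544 from limma). Its partners CENPT and CENPW had log2 fold changes of -0.20 and 0.01, with 95% intervals from -0.55 to 0.15 and from -0.28 to 0.29. That of CENPT was between -0.34 and -0.083 with single libraries left out. The sign for CENPW was negative in the scaled values. CENPC had a log2 fold change of 0.03 with the widest interval of the members, from -0.42 to 0.48, and its sign flips under either scaling.

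The 9 genes of the KMN network included 3 that fell, SPC25, NUF2 and CASC5 (33.3%, against 5.67% lower among all tested genes), and none that rose (against 11.0%). All 4 subunits of the NDC80 complex, the main microtubule receptor of the kinetochore, had estimates below 0, from -0.26 to -0.95. Among all tested genes 37.3% had an estimate below 0. The estimates of the MIS12 complex, which joins the NDC80 complex to the CCAN, lay between -0.23 and 0.10. SPC25 (ENSG00000152253, chromosome 2 of GRCh37 from 169690642 to 169769881) encodes a subunit at the end of the NDC80 complex that faces the centromere. It measured 35.4, 36.4 and 29.3 FPKM in the controls and 15.0, 18.4 and 17.4 FPKM after induction. The highest Ras-induced library was thus far below the lowest control. The mean fell by 49.8%, with group means of 33.7 ± 3.86 and 16.9 ± 1.78 FPKM (SD, n = 3 each) and a log2 fold change of -0.95 (SE 0.12, limma adjusted p = 0.00552). SPC24, its direct partner, measured 24.4, 33.5 and 22.1 FPKM in the controls and 21.3, 26.2 and 18.6 FPKM after induction. Its groups overlapped, and the 95% interval of its log2 fold change ran from -0.70 to 0.18. Without control library 2, its highest, the log2 fold change was -0.087.

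At the microtubule-binding end of the same complex, NUF2 (ENSG00000143228, chromosome 1 of GRCh37 from 163236366 to 163325554) measured 99.1, 102 and 113 FPKM in the controls and 66.1, 81.6 and 76.1 FPKM in the Ras-induced libraries. The groups did not overlap, and its log2 fold change was -0.49 (SE 0.10, limma adjusted p = 0.0246). NDC80, which pairs with NUF2, also had separate groups, at 104, 103 and 111 FPKM against 75.2, 99.9 and 79.8 FPKM. Its log2 fold change of -0.33 did not pass the threshold (adjusted p = 0.105 from limma), and without Ras-induced library 2, its highest, it was -0.45 (adjusted p = 0.0308). Without any other library it lay between -0.24 and -0.35 (adjusted p between 0.192 and 0.261 from limma), and NDC80 was called in 1 of 18 settings. CASC5 (ENSG00000137812, chromosome 15 of GRCh37 from 40886218 to 40956540), now named KNL1, is the scaffold on which the spindle checkpoint kinase BUB1 docks. It measured 30.6, 29.3 and 38.4 FPKM in the controls and 23.0, 23.6 and 23.6 FPKM after induction, with a log2 fold change of -0.46 (SE 0.11, limma adjusted p = 0.0387). Its 3 Ras-induced values were nearly equal, and the spread lay in the controls. Among the MIS12 complex genes, PMF1 had separate groups and a log2 fold change of -0.23 (adjusted p = 0.108 from limma, 0.0254 after quantile normalization). MIS12, DSN1 and NSL1 had log2 fold changes of 0.10, -0.08 and 0.10, with intervals reaching from -0.40 to 0.45, and signs that flip under alternatives.

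Both genes of the outer corona, the fibrous layer that first captures microtubules, fell, against 5.67% altered and lower among all tested genes. CENPE (ENSG00000138778, chromosome 4 of GRCh37 from 104026506 to 104119602), the kinesin that moves chromosomes to the spindle equator, measured 60.4, 58.9 and 81.4 FPKM in the controls and 45.7, 44.1 and 44.0 FPKM in the Ras-induced libraries. Control library 3 stood well above the others, while the Ras-induced libraries differed by little. The log2 fold change was -0.56 (SE 0.13, limma adjusted p = 0.0340), and without control library 3 it was -0.41 with the call kept. CENPF (ENSG00000117724, chromosome 1 of GRCh37 from 214776528 to 214837917), a large coiled-coil protein of the corona, measured 84.9, 84.8 and 103 FPKM against 60.9, 66.8 and 64.2 FPKM. Its log2 fold change was -0.50 (SE 0.10, limma adjusted p = 0.0208), and -0.40 without control library 3, where it was still called. The 3 SKA genes, whose complex helps NDC80 hold on to shortening microtubules, were not altered. SKA1, SKA2 and SKA3 had log2 fold changes of -0.38, -0.19 and -0.23 (adjusted p = 0.0949, 0.282 and 0.210 from limma), and SKA1 passed after quantile normalization (adjusted p = 0.0421). CENPJ, which despite its name builds centrioles, and CENPV, a protein of the centromere and central spindle, had -0.09 and 0.22 (adjusted p = 0.618 and 0.314 from limma). Without control library 1 the estimates were -0.096 for SKA2 and 0.11 for CENPV.

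**Figure D2:**
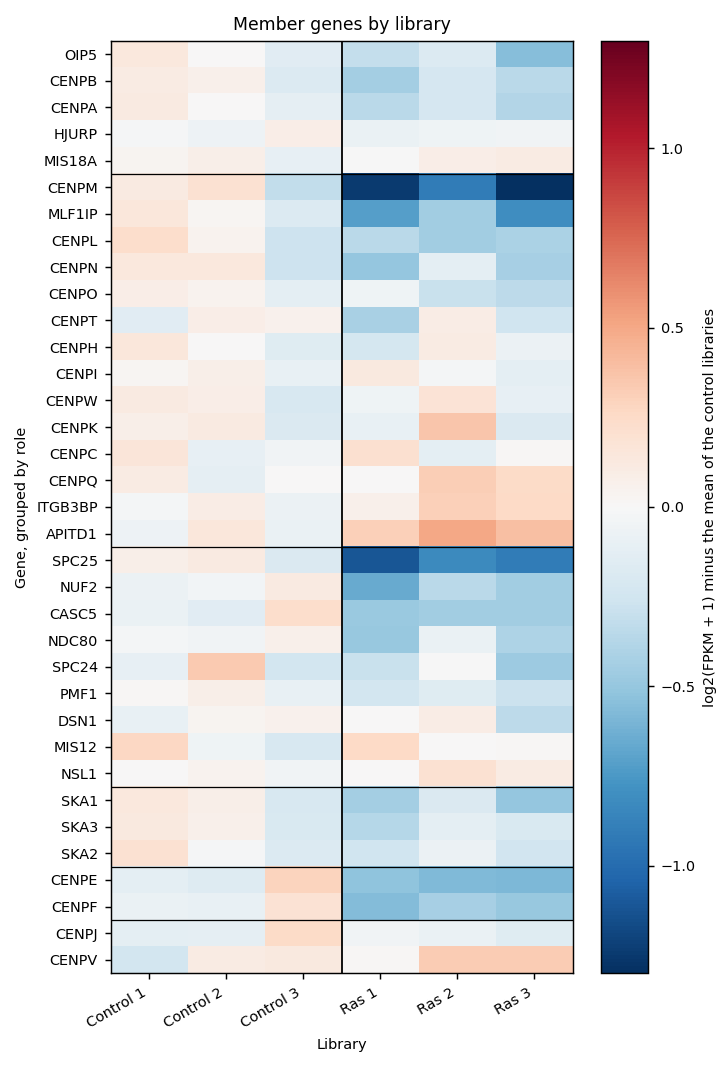
Colour gives log2(FPKM + 1) minus the mean of the 3 control libraries, for each of the 35 tested genes (rows, by role) in each library (columns); blue is lower and red higher. CENPM and SPC25 are the darkest blue in all 3 Ras-induced libraries, and control library 3 is above the other controls for CENPE, CENPF and CASC5 and below them for CENPM and SPC25.

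Ratios between genes within a library do not change when a library is multiplied by a single factor, as in upper-quartile scaling, though quantile normalization can change them, and they show where subunits of 1 complex changed unequally. These pairs were chosen after their values were seen and carry no test. The FPKM of CENPM over that of CENPK was between 0.435 and 0.507 in the control libraries and between 0.190 and 0.203 in the Ras-induced libraries. CENPM over CENPH went from between 0.628 and 0.809 to between 0.271 and 0.336. SPC25 over SPC24 was between 1.09 and 1.45 in the controls and between 0.704 and 0.934 after induction, so SPC25 was the more abundant transcript of that pair in every control library and the less abundant in every Ras-induced library. MLF1IP over CENPQ went from between 3.51 and 4.46 to between 1.88 and 2.40. Other pairs kept overlapping ratios. NUF2 over NDC80 was between 0.952 and 1.02 in the controls and between 0.817 and 0.954 after induction, CENPE over CENPF between 0.694 and 0.790 and between 0.660 and 0.750, and CENPL over CENPN between 0.256 and 0.293 and between 0.214 and 0.301. CENPA over HJURP was between 0.875 and 1.10 in the controls and between 0.794 and 0.895 after induction.

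How firmly each fall stood differed between the genes. SPC25 was called in 18 of 18 settings, the deposited values and every alternative run, with adjusted p from 0.00286 to 0.0363. CENPM was called in 16 of them and not without control library 2 (0.0510) and without Ras-induced library 1 (0.0501). The settings share libraries and are not independent checks. Summing repeated rows and adding readthrough rows left the fold changes of both genes unchanged, so those settings could not test their calls. With 1 library left out, MLF1IP and CENPF lost their calls without control library 1 or 2 (MLF1IP 0.0713 and 0.0802, CENPF 0.0517 and 0.0558) and without Ras-induced library 1 or 3 (MLF1IP 0.0750 and 0.0748, CENPF 0.0733 and 0.0748). NUF2 kept its call without Ras-induced library 2 and had adjusted p between 0.0574 and 0.0782 without any other. CASC5 and CENPE kept their calls without control library 3, with adjusted p between 0.0670 and 0.114 for CASC5 and between 0.0644 and 0.112 for CENPE without any other. Leaving out control library 1, 2 or 3 gave 2, 1 or 9 altered members of the 35 tested, against 6.99%, 6.26% or 13.4% of all tested genes. Leaving out Ras-induced library 1, 2 or 3 gave 1, 6 or 2, against 7.45%, 10.3% or 6.15%. Counts of 1 or 2 members were thus no larger a share than that altered among all tested genes. None of these member calls was in the opposite direction. Lower calls among all tested genes made up 2.52%, 2.39% or 5.07% without a control library. They made up 2.91%, 3.74% or 2.44% without a Ras-induced library. Without a filter on low values NUF2, CASC5, CENPE and APITD1 were not called, and without a variance trend CASC5, CENPE and APITD1 were not.

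**Figure D3:**
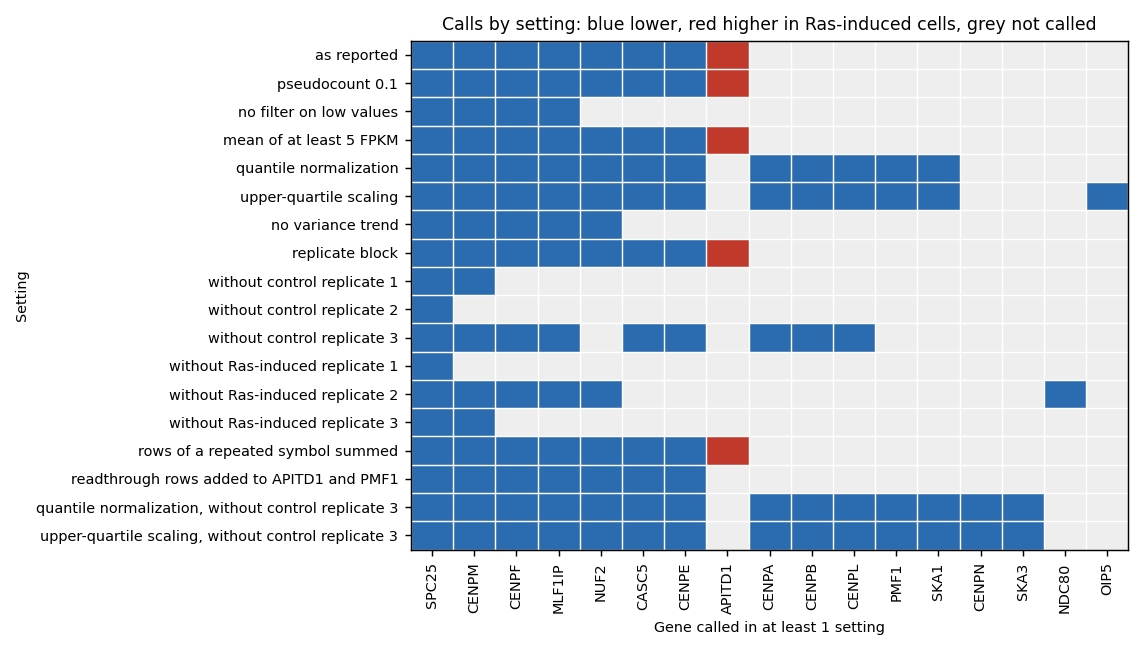
Calls (adjusted p at or under 0.05) of each gene called at least once (columns) under each setting of the analysis (rows); blue is lower and red higher in Ras-induced cells, and grey is not called. SPC25 is blue in every row, and APITD1 is the only gene with red.

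As a wider view, 30 other genes that act at the kinetochore or on its attachment to the spindle were listed for comparison, and all were tested. Of these 8 fell and 1 rose, or 26.7% lower calls against the background of 5.67% and 3.33% higher calls against 11.0%. This describes a list that was also drawn up with earlier results known. The 8 were KNTC1, CKAP5, KIF18A, BIRC5, BUB1B, BUB1, CDCA8 and PLK1, with log2 fold changes between -0.62 and -0.27. KNTC1, a subunit of the ROD complex that brings dynein to kinetochores, had the largest fall, at 27.6, 31.8 and 34.2 FPKM in the controls and 20.1, 22.4 and 17.5 FPKM after induction (log2 fold change -0.62, SE 0.12, limma adjusted p = 0.0203). The groups were separated. PPP2R5A, a regulatory subunit of the phosphatase PP2A, was the 1 that rose, at 15.3, 15.1 and 14.6 FPKM in the controls and 23.3, 21.6 and 25.7 FPKM after induction (log2 fold change 0.61, SE 0.09, limma adjusted p = 0.00874). STRA13, the gene of CENP-X and partner of APITD1, had a log2 fold change of 0.30 (adjusted p = 0.170 from limma). The KNL1 partner ZWINT (0.18, adjusted p = 0.299 from limma) was not altered either. Without 1 library the number of altered genes in this list was between 3 and 7, the lowest without control library 2 and without Ras-induced library 1 or 3. KIF18A, CKAP5 and PPP2R5A kept their calls whichever library was left out, and BUB1 and CDCA8 kept theirs in none of these fits. KNTC1 lost its call without control library 2 or 3 or Ras-induced library 1 or 3 (adjusted p up to 0.0835 from limma). BUB1B lost its call without control library 1 or 2 or Ras-induced library 1 or 3 (up to 0.0737). BIRC5 and PLK1 kept theirs only without control library 3 (adjusted p up to 0.144 and 0.129 from limma in the other fits).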

How the data were processed

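RNA-seq was performed on poly(A) RNA of 3 control and 3 Ras-induced cultures of mitotic ERRAS cells. The authors trimmed reads with Trim Galore 0.3.0, aligned them to hg19 with TopHat2 and Ensembl junctions, and deposited FPKM values per gene and library from Cufflinks. Their deposited cuffdiff comparison, which holds fold changes and p-values, was not used. Columns name a group and a number but no sample, so libraries served as replicates of their group. The 18 columns without a name, which continue 120 rows with more than 6 values, were not used, nor were those rows, none of which holds a member. A second header line was dropped.

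Log2(FPKM + 1) was fitted with limma 3.58.1 (R 4.3.3, eBayes with a trend of variance on mean) for the 13993 genes averaging 1 FPKM or more, and p-values are two-sided and Benjamini-Hochberg adjusted over all of them. The procedure was also run on simulated data, whose outcome is not given here and on which no statement rests. Absolute depth is not given by FPKM, and counting intervals were not made. Genes were placed on GRCh37, the build of hg19, with GENCODE 44. Alternatives were a pseudocount of 0.1, no filter, a minimum of 5 FPKM, quantile and upper-quartile scaling, no trend, a block on library number, leaving out single libraries, and summed rows. Added after seeing the data were readthrough rows and 2 scalings without control library 3. Members and lists were chosen with earlier results of these data known. Every member is accounted for. Values per library are given for altered members, the largest rise and fall, the 2 nearest the threshold, and for partners named after their values were seen. Python 3.11.15 with pandas 2.3.3, numpy 2.4.6 and matplotlib 3.10.9 made tables and figures.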

Additional observations from a re-analysis of the deposited data

How the results depend on the processing

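Every member called lower kept its direction in all settings. The 8 altered members became 4 without a filter on low values (0 higher, 4 lower, against 1.9% lower of all 29362 genes tested), 5 without a variance trend (0 higher, 5 lower, against 5.09% lower of all genes), 12 after quantile normalization and 13 after upper-quartile scaling (0 higher, and 12 and 13 lower), and with readthrough values added 0 were higher. With quantile or upper-quartile scaling and no control library 3, an alternative chosen after seeing the data, 14 were altered in each case (0 higher, 14 lower), against 6.84% and 6.3% lower of all genes. The median of the members was -0.34 and -0.33 after the scalings and -0.34 and -0.37 when control library 3 was left out as well. With single libraries left out, 1 to 9 members were altered (0 higher, 1 to 9 lower), 3 to 7 genes of the wider list (2 to 6 lower) and 860 to 1872 of all genes (519 to 1162 higher, 335 to 710 lower). Of all genes, 1518 were altered without the filter (960 higher), and 921 were higher after upper-quartile scaling. Calls split into 1543 higher and 793 lower as deposited, into 1044 and 1109 once quantile normalized and into 921 and 1101 at a common upper quartile. When control library 3 was left out as well, 870 were higher after quantile normalization and 727 after upper-quartile scaling. The cause of these changes was not tested.

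Members near 0 that were never called changed sign. After quantile normalization the log2 fold changes were -0.049 for MIS18A, -0.032 for CENPC, -0.084 for CENPK, -0.063 for CENPW and -0.012 for NSL1, and after upper-quartile scaling -0.045 for MIS18A, -0.030 for CENPC, -0.085 for CENPK, -0.10 for CENPW, -0.0022 for MIS12 and -0.0059 for NSL1. With control library 3 also left out they were -0.085 for MIS18A, -0.041 for CENPC, -0.16 for CENPK, -0.15 for CENPW, -0.085 for MIS12 and -0.018 for NSL1 after quantile normalization, and -0.079 for MIS18A, -0.043 for CENPC, -0.16 for CENPK, -0.19 for CENPW, -0.085 for MIS12 and -0.0084 for NSL1 after upper-quartile scaling. With single libraries left out, CENPC ranged from -0.056 to 0.11, CENPH from -0.15 to 0.015, CENPI from -0.075 to 0.053, CENPK from -0.14 to 0.13, CENPW from -0.098 to 0.065, MIS12 from -0.0051 to 0.23, DSN1 from -0.17 to 0.051 and CENPJ from -0.16 to 0.030.

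The labels do not pair the libraries. Deviations of libraries with the same number correlated at -0.00266, 0.0433 and 0.0481, and those with different numbers at -0.0679 to 0.0311, so the numbers were not taken as pairs. With the replicate block 8 members were altered, the same 8 genes, against 16.5% of all genes (7 lower, against 6.03%), and 7 genes of the wider list, against 9 without the block. FPKM gives no absolute depth, so no counting error is attached to low values such as those of CENPC and CENPP, and 3 libraries a group limit the precision of every change.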
